A study of Mus musculus with 4 samples.

Results

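Epithelial cells are held together by adherens junctions, in which E-cadherin (Cdh1) binds its counterpart on the next cell and is tied to actin through catenins, and by tight junctions, in which claudins, occludin and JAM-A are anchored to the scaffold ZO-1 and set what passes between cells. In the alveolus these junctions keep airspace and tissue fluid apart, and claudin-18 is the claudin best known for its form made in lung. Loss of E-cadherin under repressors such as ZEB1 and SNAI1 is the textbook start of epithelial to mesenchymal transition. The 10 genes described here were chosen by name as a set of epithelial junction genes: Cdh1, the catenins Ctnnb1 and Ctnnd1, the claudins Cldn18, Cldn3 and Cldn7, Ocln, F11r, Tjp1 and Epcam. All 10 were among the 25759 gene symbols counted and among the 13306 with enough counts to be tested.

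Transcripts were counted in alveolar type II cells, the surfactant-making cells of the alveolus, of C57BL/6 mice aged 14 weeks. There were 2 libraries from mice with a conditional active mTOR transgene, whose genotype label names Sftpc, the surfactant protein C gene whose promoter is active in type II cells (mTOR Tg), and 2 from wild-type mice (WT). The labels name no inducing agent, no way of isolating the cells and no number of mice per library, and the spread behind the p-values, that between libraries, may therefore be technical. The comparison asks whether an active form of mTOR, the kinase that couples nutrients to growth, goes with other levels of junction transcripts.

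Libraries held 18146693 to 21972124 counts. The type II cell gene Sftpc was at 72565 and 73804 CPM in mTOR Tg and at 75841 and 61011 CPM in WT, where CPM is the count scaled to the library total (TMM-adjusted). Other type II markers differed from Sftpc in mTOR Tg replicate 1. There Lamp3, Abca3, Slc34a2, Etv5 and Lpcat1 stood at 0.523 to 0.637 times the WT mean. Sftpa1, Sftpb, Napsa and Sftpd stood at 0.926 to 1.22 times. Mtor was at 38.9 and 61.8 CPM in mTOR Tg and at 56.8 and 56.7 CPM in WT, and the labels do not say if transgene reads count towards this symbol. The leukocyte genes Cd3e and C1qb had 0 counts in each library, which allows up to 0.137 to 0.165 CPM, and the 8 leukocyte markers summed to 3.58 and 4.36 CPM in mTOR Tg and to 4.72 and 2.88 CPM in WT. Replicate 1 of mTOR Tg stood apart from the rest. Its log2 CPM correlated across genes with the other libraries at 0.951 to 0.954, against 0.983 to 0.988 among those. Against the WT mean, its median log2 difference was 0.44 over the quartile of genes with the shortest transcripts and -0.55 over the longest, where mTOR Tg replicate 2 had -0.0031 and 0.0024. Its 7 club cell markers summed to 175793 CPM, against 55843 CPM in mTOR Tg replicate 2 and 85085 and 88374 CPM in WT, and its 7 ciliated cell markers to 3516 CPM, against 1572 CPM and 1508 and 1666 CPM. The club cell genes Scgb1a1 and Scgb3a2 and the ciliated cell gene Tppp3 lay 1.06, 1.18 and 1.38 above the WT mean (log2). A smooth of all tested genes on transcript length and GC content put them at 0.54, 0.060 and 0.58. It put the type II genes Lamp3, Abca3, Slc34a2, Etv5 and Lpcat1 at -0.55, -0.30, -0.22, -0.089 and -0.0043. In the data these lay at -0.87, -0.65, -0.86, -0.93 and -0.77. The part of length in the club and ciliated sums and in these type II genes was not tested. Airway epithelial cells also make junctions, so results below are given with and without this library. Leaving it out does not remove club cell transcripts, since Scgb1a1 was at 70877 and 72589 CPM in WT, near the level of Sftpc. The levels below are therefore those of the whole isolate, and the part of airway cells in them was not tested.

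Levels were compared per length, as normalised RPKM, which is the TMM-scaled CPM divided by the kilobases of annotated exons. Cldn3, a sealing claudin of many simple epithelia, stood highest, at 830 and 448 RPKM in mTOR Tg and 478 and 476 RPKM in WT. Next came Ctnnb1, the β-catenin that links E-cadherin to α-catenin and also carries WNT signals, at 182 and 295 RPKM in mTOR Tg and 268 and 260 RPKM in WT. Cdh1 followed at 173 and 210 RPKM in mTOR Tg and 204 and 204 RPKM in WT, and Cldn18 at 114 and 139 RPKM in mTOR Tg and 149 and 133 RPKM in WT. On this exon length the levels of Ctnnb1 and Cdh1 almost met in mTOR Tg replicate 1, while in the other libraries β-catenin stood above E-cadherin. F11r, Cldn7 and Epcam lay between 56.2 and 110 RPKM and their ranges overlapped, so their order is not resolved. With the longest coding transcript as the length, Cldn7 averaged 104 RPKM in place of 71.1 RPKM over the 4 libraries and Ctnnb1 360 RPKM in place of 251 RPKM. Cdh1 then averaged 204 RPKM in place of 198 RPKM, so on that length β-catenin stood further above E-cadherin. The least abundant were Ctnnd1 at 21.6 to 32.2 RPKM, Tjp1 at 8.59 to 20.8 RPKM and Ocln at 7.24 to 11.7 RPKM over the 4 libraries.

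**Figure D1:**
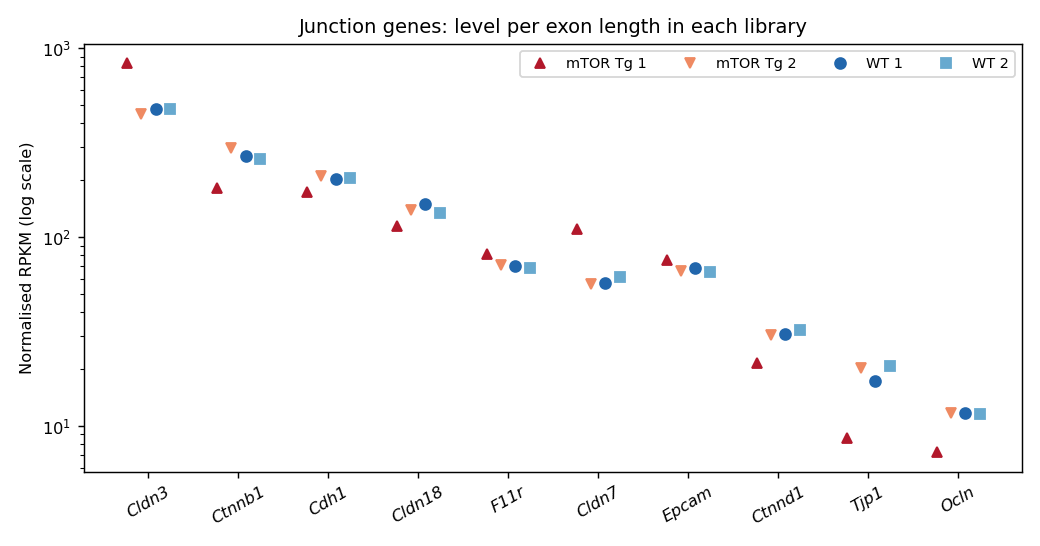
Normalised RPKM (log scale) of the 10 junction genes in each library, ordered by the mean of the 4 libraries; each point is 1 library. Cldn3 is the highest gene in every library and Ocln the lowest, and mTOR Tg replicate 1 lies off the other 3 libraries for most genes, as for Cldn3 at 830 RPKM and Tjp1 at 8.59 RPKM.

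None of the 10 junction genes was called different between mTOR Tg and WT by edgeR's quasi-likelihood test at an adjusted p under 0.05, where 0% of the 13306 genes were called. None had an unadjusted p under 0.05 either, against 2.46% of all genes (327), and limma-voom and DESeq2 called 0 of the 10, where they called 0% and 0.0734% of genes. Their median log2 fold change was -0.12, with 4 positive and 6 negative, beside a median of 0.0087 over all tested genes. F11r was higher in each mTOR Tg library than in either WT library, and Ctnnd1 lower, where 17.6% and 17.0% of all tested genes did so. For the other 8 genes the genotypes overlapped. In these bulk libraries fewer cells of a type and less RNA per cell cannot be told apart. Leaving out mTOR Tg replicate 1 gave a median of -0.0038, and 0 members were called, where 2.20% of genes were. Without mTOR Tg replicate 2, 6 members were called (Ctnnb1, Ctnnd1, Cldn3, Cldn7, Ocln and Tjp1), where 45.5% of genes were, and that fit holds no second mTOR Tg library.

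**Figure D2:**
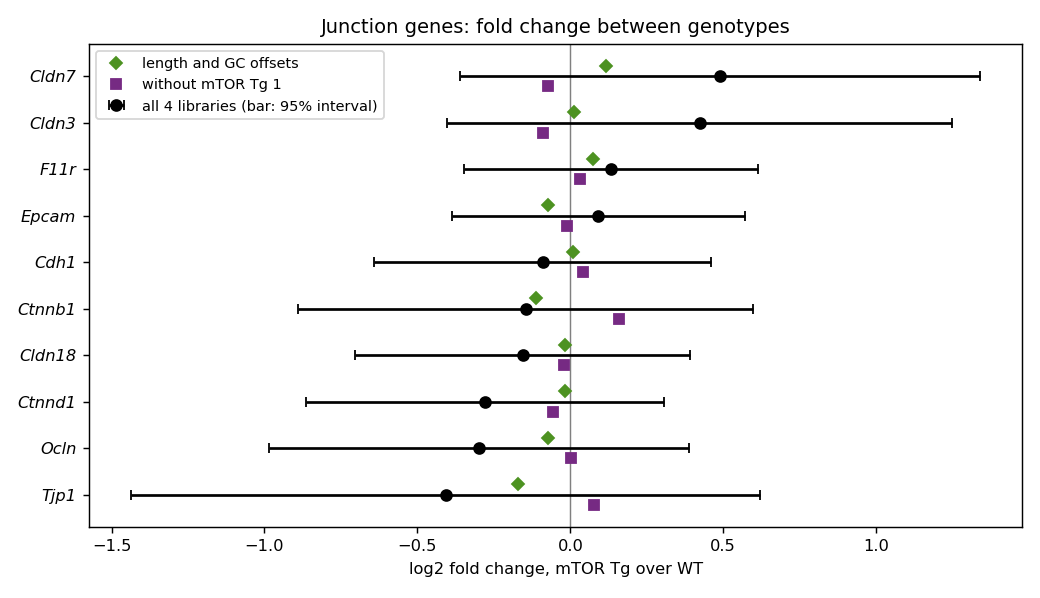
log2 fold change of mTOR Tg over WT for the 10 genes, with all 4 libraries (black, bars are 95% intervals), with offsets for transcript length and GC content (green) and without mTOR Tg replicate 1 (purple). Every interval spans 0; with all libraries the values run from -0.41 for Tjp1 to 0.49 for Cldn7, and in the other fits they lie within 0.17 of 0.

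Of the adherens junction genes, Cdh1 (chromosome 8, 106603351 to 106670246 on GRCm38) had 793 and 960 CPM in mTOR Tg and 932 and 934 CPM in WT, from 16172, 20042, 16974 and 18488 counts. Both WT libraries lay between those of mTOR Tg, and the means were 877 ± 117.5 CPM in mTOR Tg and 933 ± 1.73 CPM in WT (SD, n = 2 each). The log2 fold change was -0.090 (SE 0.22, 95% interval -0.64 to 0.46, edgeR adjusted p = 0.913). Ctnnb1 (chromosome 9, 120929216 to 120960507) had 944 and 1532 CPM in mTOR Tg and 1390 and 1351 CPM in WT. It was the lowest of the 4 libraries in mTOR Tg replicate 1 and the highest in replicate 2, and its log2 fold change was -0.15 (SE 0.30, edgeR adjusted p = 0.897). Replicate 2 lay 0.16 above the WT mean on the log2 scale, the widest departure of any of the 10 genes in that library. Ctnnd1 (chromosome 2, 84600071 to 84650765), the p120-catenin that holds E-cadherin at the membrane, had 158 and 222 CPM in mTOR Tg and 225 and 236 CPM in WT. Both mTOR Tg libraries lay below WT, replicate 2 only slightly, and the log2 fold change was -0.28 (SE 0.23, edgeR adjusted p = 0.860). The ratio of Ctnnb1 to Cdh1 per kilobase of annotated exons was 1.05 and 1.41 in mTOR Tg and 1.31 and 1.27 in WT.

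The claudins parted by gene in mTOR Tg replicate 1. Cldn3 (chromosome 5, 134986214 to 134987472) had 1045 and 564 CPM in mTOR Tg and 601 and 599 CPM in WT. Cldn7 (chromosome 11, 69964779 to 69967885), a claudin that also binds Epcam, had 214 and 109 CPM in mTOR Tg and 111 and 119 CPM in WT. Both stood 1.74 and 1.86 times over the WT mean in mTOR Tg replicate 1, and 0.940 and 0.950 times in replicate 2. Their log2 fold changes were 0.42 (SE 0.33) and 0.49 (SE 0.34), each with an edgeR adjusted p of 0.860. Cldn18 (chromosome 9, 99689461 to 99717267) had 509 and 620 CPM in mTOR Tg and 663 and 594 CPM in WT, so it was lowest in the library where Cldn3 and Cldn7 were highest. Its log2 fold change was -0.16 (SE 0.22, edgeR adjusted p = 0.863). Per length, Cldn3 stood at 7.27 and 3.22 times Cldn18 in mTOR Tg and at 3.21 and 3.57 times in WT, while the ratio of Cldn7 to Cldn3 was 0.132 and 0.125 in mTOR Tg and 0.119 and 0.129 in WT.

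The promoters of Cldn3, Cldn7 and Cldn18 are shown because these genes held most of the summed claudin RPKM. That of Epcam is shown because Epcam binds claudin-7. Another reason is that the repressors of E-cadherin, whose levels follow, bind E-boxes. Windows run from 250 bases before to 50 after a RefSeq start (GRCm38.p6) and were found for 9 of the 10 genes, Cdh1 apart, 14 windows in all. Each reads 5′ to 3′ on the gene's strand, with capitals for CAGGTG (E-box form bound by ZEB and SNAI factors) or CAAGTG (a core of NKX2-1 sites, NKX2-1 being the lung epithelial factor) on either strand. Both words are of the form CANNTG, the general E-box, and no match of one overlapped a match of the other. Cldn3 (chr5:134985964-134986263, plus), Cldn7 at its downstream start (chr11:69965171-69965470, plus), Epcam (chr17:87635729-87636028, plus) and Cldn18 at its upstream (chr9:99717218-99717517, minus) and downstream start (chr9:99710014-99710313, minus) read as follows.
Cldn3: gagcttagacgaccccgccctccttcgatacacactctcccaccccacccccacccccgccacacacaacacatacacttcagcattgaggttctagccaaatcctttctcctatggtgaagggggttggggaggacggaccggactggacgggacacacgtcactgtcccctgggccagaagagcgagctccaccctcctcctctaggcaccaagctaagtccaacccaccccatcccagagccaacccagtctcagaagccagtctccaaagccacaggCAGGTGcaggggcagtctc
Cldn7 downstream start: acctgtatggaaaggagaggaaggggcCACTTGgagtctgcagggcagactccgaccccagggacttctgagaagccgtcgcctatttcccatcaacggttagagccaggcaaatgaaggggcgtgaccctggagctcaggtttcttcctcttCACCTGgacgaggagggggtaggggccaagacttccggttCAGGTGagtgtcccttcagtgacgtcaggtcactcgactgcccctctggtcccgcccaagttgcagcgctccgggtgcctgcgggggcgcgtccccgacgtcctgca
Epcam: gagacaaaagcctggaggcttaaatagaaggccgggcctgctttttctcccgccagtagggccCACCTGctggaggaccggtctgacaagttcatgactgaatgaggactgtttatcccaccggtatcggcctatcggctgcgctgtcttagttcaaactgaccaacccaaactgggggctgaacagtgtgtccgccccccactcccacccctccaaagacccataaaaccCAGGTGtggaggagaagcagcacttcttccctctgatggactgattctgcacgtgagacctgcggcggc
Cldn18 upstream start: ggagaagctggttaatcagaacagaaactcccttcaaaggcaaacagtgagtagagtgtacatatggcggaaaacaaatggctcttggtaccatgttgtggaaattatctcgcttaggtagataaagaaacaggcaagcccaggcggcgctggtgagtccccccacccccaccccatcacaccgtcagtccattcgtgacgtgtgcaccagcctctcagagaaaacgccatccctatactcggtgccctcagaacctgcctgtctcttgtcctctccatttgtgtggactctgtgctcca
Cldn18 downstream start: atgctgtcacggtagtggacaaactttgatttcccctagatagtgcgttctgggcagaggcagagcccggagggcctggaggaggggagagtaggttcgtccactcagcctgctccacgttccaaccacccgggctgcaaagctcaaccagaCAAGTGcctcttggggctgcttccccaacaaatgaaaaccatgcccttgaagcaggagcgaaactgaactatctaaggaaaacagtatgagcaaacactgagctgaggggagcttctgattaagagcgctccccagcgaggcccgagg
CAGGTG was present in 6 of the 14 windows, those of Cldn3, Cldn7 (downstream start), Epcam, F11r and both overlapping starts of Ocln, and in 20.2% of all 32817 promoter windows. CAAGTG was present in 2 of the 14, those of Cldn7 and Cldn18 at their downstream starts, and in 13.6% of all windows. AACCNGTT, the word of the grainyhead factor GRHL2, was in 0 of the 14 and in 2.08% of all. In Cldn7 the CAGGTG words began 97 and 57 bases before the start, and in Epcam 187 and 19 bases before it. The counts are summed per gene symbol, so they do not say which Cldn18 start was used, lung and stomach being known to use different ones. The upstream Cldn18 window had 0 matches, so the CAAGTG word of the downstream window may not belong to the start used here.

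Across the family, 25 claudin genes were in the table with a length, of which 7 had 0 counts in all libraries. Cldn3, Cldn18 and Cldn7 together made up most of the summed claudin RPKM. The share of Cldn3 was 73.3% and 65.7% in mTOR Tg and 64.6% and 65.4% in WT. That of Cldn18 was 10.1% and 20.4% in mTOR Tg and 20.1% and 18.3% in WT. The makeup of mTOR Tg replicate 2 was thus close to that of WT, while in replicate 1 the share of Cldn18 was lower. A share also falls when another claudin rises. In replicate 1 Cldn18 itself stood at 0.810 times the WT mean and Cldn3 at 1.74 times. The smooth on transcript length and GC content put them at -0.28 and 0.66 from the WT mean (log2). The part of length in the shares was not tested. Beyond the 3 above, 9 claudins and the claudin-domain gene Cldnd1 were tested and 0 of these 10 called with all 4 libraries, with a median log2 fold change of -0.14. Cldn10, known in mouse lung as a gene of club cells, had 89.9 and 32.7 CPM in mTOR Tg and 56.3 and 55.2 CPM in WT. Its log2 fold change was 0.14, and -0.77 without mTOR Tg replicate 1, in which fit it was called (edgeR adjusted p = 0.00157). The club cell secretoglobin Scgb1a1 was likewise highest in mTOR Tg replicate 1 and lowest in replicate 2, at 149336 and 43867 CPM in mTOR Tg and 70877 and 72589 CPM in WT. The part of airway cells in the level of Cldn10 was not tested. Cldn8, a claudin that limits cation passage, had 7.21 and 7.23 CPM in mTOR Tg and 11.8 and 13.2 CPM in WT, for a log2 fold change of -0.79 ± 0.22 (SE; adjusted p = 0.860 in edgeR). Its mTOR Tg libraries were nearly equal, and its log2 fold change without mTOR Tg replicate 1 was also -0.79, there just past the threshold (edgeR adjusted p = 0.049996). The pore-forming Cldn2 had 1.77 and 2.68 CPM in mTOR Tg and 1.32 and 1.01 CPM in WT, Cldn12 had 24.3 and 28.5 CPM against 32.5 and 34.3 CPM, and Cldnd1 33.6 and 42.8 CPM against 41.7 and 41.2 CPM. Leaving out mTOR Tg replicate 1 put the median of these 10 at -0.49.

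**Figure D3:**
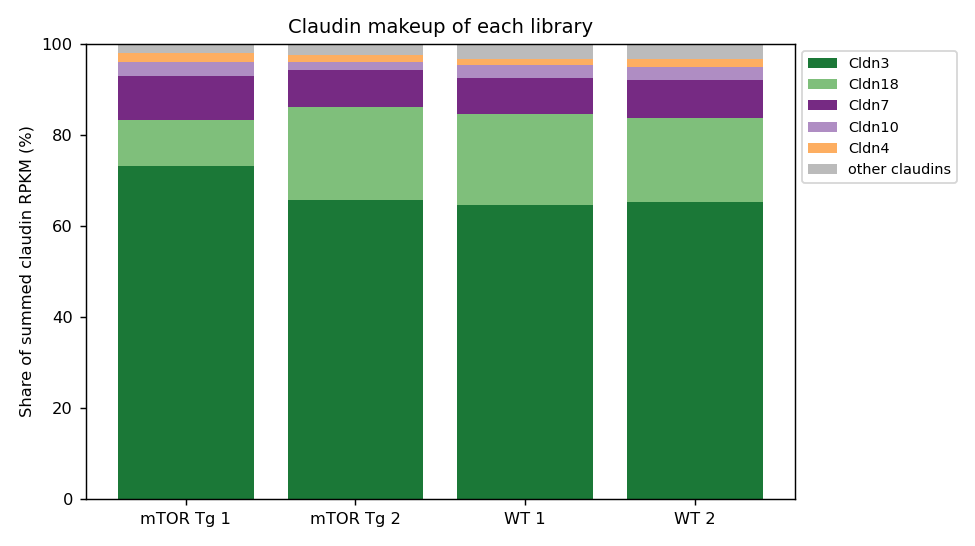
Share of each claudin in the summed claudin RPKM of a library, in percent; each bar is 1 library. Cldn3 holds 73.3% in mTOR Tg replicate 1 and 64.6% to 65.7% in the other libraries, and Cldn18 10.1% against 18.3% to 20.4%.

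Of the remaining tight junction genes, occludin (Ocln, chromosome 13, 100496507 to 100552718), a 4-pass membrane protein of the strands, had 30.6 and 49.3 CPM in mTOR Tg and 49.5 and 48.8 CPM in WT. Only mTOR Tg replicate 1 departed, and the log2 fold change was -0.30 (SE 0.28, edgeR adjusted p = 0.860). F11r (chromosome 1, 171437535 to 171464603), which encodes JAM-A, had 215 and 188 CPM in mTOR Tg and 186 and 182 CPM in WT, for a log2 fold change of 0.13 ± 0.19 (SE; adjusted p = 0.864 in edgeR). Tjp1 (chromosome 7, 65296165 to 65527781), the ZO-1 scaffold that joins claudins to actin, had 67.1 and 157 CPM in mTOR Tg and 135 and 163 CPM in WT. It had the widest gap within mTOR Tg of the 10 genes, with replicate 1 at 0.427 times replicate 2, and the widest between the WT libraries, 0.27 on the log2 scale. Its log2 fold change was -0.41 (SE 0.41, 95% interval -1.44 to 0.62, edgeR adjusted p = 0.860). Epcam (chromosome 17, 87635979 to 87651129), a homophilic adhesion protein that stabilises claudin-7, had 166 and 145 CPM in mTOR Tg and 150 and 143 CPM in WT, for a log2 fold change of 0.092 ± 0.19 (SE; adjusted p = 0.899 in edgeR). Epcam and F11r varied least of the 10 genes.

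The departures of mTOR Tg replicate 1 fell with transcript length, though not in strict order. The 4 genes with the shortest transcripts, Cldn3 (1259 bases), Cldn7 (1335), Epcam (2040) and F11r (2518), lay 0.80, 0.89, 0.19 and 0.23 above the WT mean on the log2 scale. The 6 with longer transcripts lay below it, from -0.23 for Cdh1 (4430 bases) to -1.14 for Tjp1 (7049 bases). Among these, Ctnnb1 (3623 bases) and Ocln (4052) lay at -0.54 and -0.68, below Cldn18 (4172) at -0.30 and Cdh1. Over the 10 genes Pearson's r with log2 length was -0.94 in replicate 1 and 0.49 in replicate 2, and Spearman's rho -0.83 and 0.49. Over 13115 tested genes Pearson's r was -0.53 and -0.011. These values describe genes that share a library. A smooth of all tested genes on length and GC content placed Cldn3 at 0.66, Cldn7 at 0.59, Ctnnd1 at -0.56, Ocln at -0.50 and Tjp1 at -0.65 from the WT mean in replicate 1, and Ctnnb1, at -0.54 in the data, at -0.089. With these offsets the log2 fold changes of the 10 genes ran from -0.17 for Tjp1 to 0.12 for Cldn7, and that of Cdh1 was 0.0080 (SE 0.14). In mTOR Tg replicate 2 the median size of the departure from the WT mean was 0.049 over the 10 genes and 0.13 over all tested genes, and in replicate 1 it was 0.54 and 0.43. What made replicate 1 differ was not tested.

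**Figure D4:**
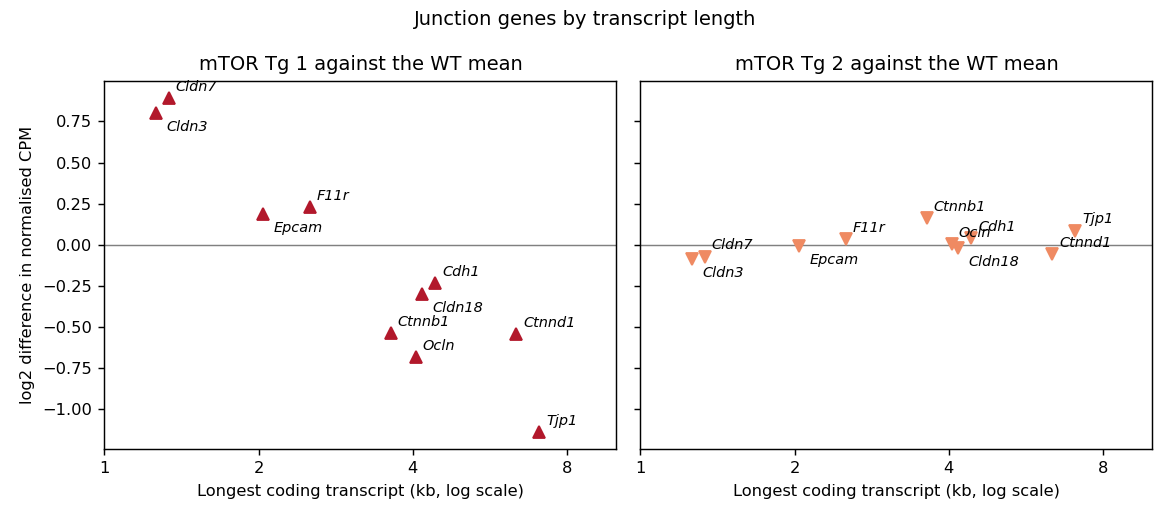
log2 difference in normalised CPM from the WT mean, against the length of the longest annotated coding transcript (kb, log scale), for mTOR Tg replicate 1 (left) and replicate 2 (right); each point is a gene. In replicate 1 the values run from 0.89 for Cldn7 to -1.14 for Tjp1, and in replicate 2 none departs by more than 0.16.

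Genes that work with these 10 were listed in 8 groups, and with all 4 libraries edgeR called 0 of the 101 tested in either direction. Without mTOR Tg replicate 1, a fit that holds 1 mTOR Tg library, it called 5 of them, beside 2.20% of all genes: Mpdz higher, and Cldn8, Cldn10, Jam2 and Klf4 lower. Without mTOR Tg replicate 2 it called 51, beside 45.5%. Among tight junction scaffold and membrane proteins 20 were tested, 8 positive and 12 negative, with a median log2 fold change of -0.11. The cingulin gene Cgn, which ties ZO proteins to myosin, had 164 and 147 CPM in mTOR Tg and 179 and 183 CPM in WT. Its relative Cgnl1 had 174 and 295 CPM in mTOR Tg and 281 and 271 CPM in WT. Cgn was thus below WT in both mTOR Tg libraries, while for Cgnl1 the genotypes overlapped. The smallest p-values were those of low genes, Jam3 (1.96 and 1.48 CPM in mTOR Tg, 0.659 and 1.21 CPM in WT) and Mpdz (2.94 and 7.85 CPM in mTOR Tg, 3.35 and 3.18 CPM in WT). Only mTOR Tg replicate 2 was high in Mpdz, whose log2 fold change was 0.72, and 1.26 without replicate 1 (edgeR adjusted p = 0.00699). Jam2, a junctional adhesion molecule named for its call in that fit, had 7.21 and 3.06 CPM in mTOR Tg and 6.97 and 7.43 CPM in WT. Its log2 fold change was -0.49, and -1.23 without replicate 1 (edgeR adjusted p = 0.0136).

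Adherens junction partners had a median of -0.060 over 20 tested genes, 9 positive and 11 negative. α-Actinin-4 (Actn4), an actin cross-linker, had 583 and 616 CPM in mTOR Tg and 586 and 586 CPM in WT. α-Catenin (Ctnna1), the link to actin, had 338 and 397 CPM in mTOR Tg and 381 and 392 CPM in WT, and plakoglobin (Jup), which also serves desmosomes, 293 and 242 CPM against 297 and 268 CPM. For none of these genes did the genotypes part. The smallest p-values were those of Ctnnal1, with 14.9 and 25.3 CPM in mTOR Tg and 32.6 and 32.0 CPM in WT, and vinculin (Vcl), with 39.7 and 71.0 CPM against 65.7 and 81.7 CPM. N-cadherin (Cdh2) had 4 and 10 counts in mTOR Tg and 4 and 9 counts in WT and was not tested.

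Desmosome genes had a median of -0.13 over 6 tested, 2 positive and 4 negative. Desmoplakin (Dsp), the anchor of keratin filaments, had 91.5 and 128 CPM in mTOR Tg and 124 and 135 CPM in WT. Pkp2 had 43.1 and 44.2 CPM in mTOR Tg and 47.3 and 45.4 CPM in WT, Perp 40.7 and 31.2 CPM against 32.0 and 34.3 CPM, and the desmosomal cadherin gene Dsc2 1.47 and 1.77 CPM against 1.81 and 2.32 CPM. Polarity complex genes had a median of -0.17 over 14 tested, 6 positive and 8 negative, which was 0.011 without mTOR Tg replicate 1. The atypical protein kinase C genes Prkci and Prkcz, whose products mark the apical side, had 85.5 and 170.5 CPM and 123 and 102 CPM in mTOR Tg, against 152 and 180 CPM and 104 and 100.3 CPM in WT. Llgl2, a basolateral polarity gene, had 136 and 113 CPM in mTOR Tg and 110.4 and 112 CPM in WT. In 5 of the 14 (35.7%, beside 17.0% of all tested genes) mTOR Tg lay wholly below WT, and in 2 wholly above (beside 17.6%). Among the 5 were Pard6g, with 3.92 and 4.45 CPM against 6.86 and 7.48 CPM, and Pard3b, with 7.31 and 10.7 CPM against 13.6 and 15.7 CPM. Of the 8 lists, only E-cadherin regulators, given below, had a larger share wholly below WT. Tight junction scaffold genes had 3 of 20 wholly below and 4 above, and adherens junction partners 3 of 20 and 2. The other claudins had 2 of 10 below and 2 above, and desmosome genes 2 of 6 and 0. Epcam partners had 1 of 7 below and 2 above, and gap junction genes 1 of 8 and 0.

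Epcam partners and the matriptase system, a membrane protease that cleaves Epcam, had a median of 0.17 over 7 tested genes, 5 positive and 2 negative, which was -0.048 without mTOR Tg replicate 1. The inhibitor gene Spint2 had 962 and 680 CPM in mTOR Tg and 673 and 663 CPM in WT, and matriptase (St14) 238 and 177 CPM against 171 and 173 CPM. The tetraspanin gene Cd9 had 314 and 281 CPM in mTOR Tg and 306 and 281 CPM in WT. Spint2 and St14 were highest in mTOR Tg replicate 1, as Cldn3 and Cldn7 were. Gap junction genes had a median of -0.075 over 8 tested, 3 positive and 5 negative, which was 0.14 without mTOR Tg replicate 1. Connexin-43 (Gja1), which passes calcium signals between alveolar cells, had 111 and 224 CPM in mTOR Tg and 201 and 181 CPM in WT. Gjb6 had 23.1 and 28.3 CPM in mTOR Tg and 31.2 and 25.3 CPM in WT, Gjb1 15.7 and 19.7 CPM against 16.7 and 17.4 CPM, and the channel gene Panx1 7.21 and 5.12 CPM against 4.17 and 5.36 CPM. Gja4, a connexin of arterial endothelium, had 0.294 and 0.862 CPM in mTOR Tg and 1.59 and 1.57 CPM in WT. The 8 endothelial markers summed to 138 and 143 CPM in mTOR Tg and 196 and 198 CPM in WT. Of the 8, 5 lay below WT in both mTOR Tg libraries, beside 17.0% of all tested genes, and 0 above. Most of each sum came from Kdr and Esam. Kdr had 51.9 and 35.0 CPM in mTOR Tg and 79.3 and 84.4 CPM in WT. For Esam, at 64.2 and 77.1 CPM against 78.1 and 72.6 CPM, the genotypes overlapped. The part of endothelial cells in the level of Gja4 was not tested.

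Regulators of E-cadherin had the most negative median of the 8 lists with all libraries, -0.24 over 16 tested genes, 14 negative and 2 positive, beside 49.1% negative among all tested genes. Both mTOR Tg libraries lay below both WT libraries in 7 of the 16 (43.8%, against 17.0% of all tested genes) and above them in 0. The 7 held both repressors and activators of the epithelial program, namely Zeb1, Tcf4, Klf4, Klf5, Grhl2, Esrp1 and Esrp2. None was called with all 4 libraries, and 1 of the 16, Klf4, without mTOR Tg replicate 1. Leaving out mTOR Tg replicate 1 gave a median of -0.24, and 14 of 16 were negative, and with the length and GC offsets the median was -0.19. Other gene sets may do the same in these libraries, and no test of the list was made. The list was chosen with earlier results of these data known, so its shares beside those of all genes are a description only.

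Klf5, a zinc finger factor of alveolar and airway epithelium, had 81.5 and 81.2 CPM in mTOR Tg and 100.1 and 112 CPM in WT, for a log2 fold change of -0.38 ± 0.19 (SE; adjusted p = 0.860 in edgeR). Grhl2, the grainyhead factor that activates Cdh1 and claudin genes, had 54.5 and 58.0 CPM in mTOR Tg and 68.3 and 72.9 CPM in WT, for a log2 fold change of -0.33 ± 0.19 (SE; adjusted p = 0.860 in edgeR). In both genes the mTOR Tg libraries lay close together and apart from WT. Klf4, a related zinc finger factor, had 41.8 and 33.6 CPM in mTOR Tg and 49.0 and 58.6 CPM in WT. Its log2 fold change was -0.51, and -0.68 without mTOR Tg replicate 1 (edgeR adjusted p = 0.00901). The epithelial splicing factor genes Esrp1 and Esrp2 had 67.6 and 81.3 CPM and 102 and 133 CPM in mTOR Tg, against 83.5 and 86.8 CPM and 135 and 142 CPM in WT. For these, replicate 2 was near WT.

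Of the repressors, Zeb1 had 1.13 and 1.87 CPM in mTOR Tg and 2.42 and 2.68 CPM in WT (log2 fold change -0.76, SE 0.38), and Tcf4, an E-protein, 11.04 and 15.5 CPM against 22.5 and 20.9 CPM (log2 fold change -0.71, SE 0.25), each with an edgeR adjusted p of 0.860. Without mTOR Tg replicate 1 their log2 fold changes were -0.45 and -0.48, and with the length and GC offsets -0.51 and -0.20. Mesenchymal and endothelial cells also express both genes. The 8 markers of fibroblasts and pericytes summed to 35.2 and 60.9 CPM in mTOR Tg and 46.8 and 31.0 CPM in WT. Of these 8, 5 had enough counts to be tested. In both mTOR Tg libraries 0 of the 8 lay below WT and 0 above, beside 17.0% and 17.6% of all tested genes. With so few genes, 0 cannot be told apart from these shares. The endothelial sum, given above for Gja4, lay below WT in both mTOR Tg libraries. The part of these cells in Zeb1 and Tcf4 was not tested. Zeb2 had 0.0981 and 0.622 CPM in mTOR Tg and 0.439 and 0.606 CPM in WT, and Tcf3 78.3 and 70.5 CPM against 77.7 and 74.0 CPM. Too few counts were found to test the classical repressors Snai1 (7 and 4 counts in mTOR Tg, 4 and 6 in WT), Snai2 (1 and 2 counts against 0 and 4) and Twist1 (0 and 0 counts against 0 and 1). These transcripts were at or near the floor in both genotypes.

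The remaining regulators overlapped between genotypes. Elf3, an epithelial ETS factor, had 124 and 77.4 CPM in mTOR Tg and 90.0 and 70.9 CPM in WT, and Ovol2, a repressor of Zeb1, 13.4 and 8.14 CPM against 8.24 and 9.05 CPM. Log2 fold changes of Ovol1, Grhl1 and Grhl3 were -0.14, -0.16 and -0.066. The ligase gene Cbll1, whose product Hakai marks E-cadherin for uptake, had 10.6 and 16.7 CPM in mTOR Tg and 21.7 and 16.4 CPM in WT, and the sheddase gene Adam10, whose product cleaves E-cadherin, 37.0 and 74.3 CPM against 67.6 and 64.9 CPM.

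**Figure D5:**
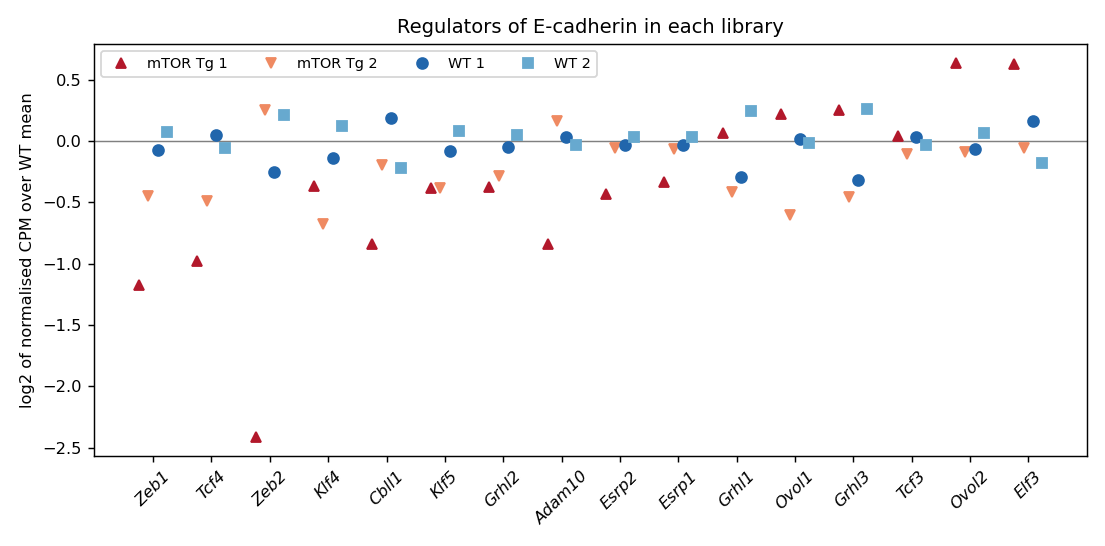
log2 of normalised CPM over the WT mean for the 16 tested regulators of E-cadherin, ordered by fold change; each point is 1 library. Zeb1, Tcf4, Klf4, Klf5, Grhl2, Esrp1 and Esrp2 have both mTOR Tg libraries below both WT libraries, and none of the 16 has both above.

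The tested genes whose pattern over the 4 libraries came nearest to that of Cdh1 were Polr2b, a subunit gene of RNA polymerase II, Ptgr2, a prostaglandin reductase gene, and AI987944. Their root mean square distances in centred log2 CPM were 0.0067, 0.0085 and 0.0099. The pattern is a common one, since 1324 of 13296 genes lay within 0.1 of it.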

How the data were processed

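The deposited values were whole-number read counts per gene symbol, 1 column a library, tied to samples through the names in the labels. The authors named HISAT2, edgeR and build mm10 in the submitters' processing notes, with no role for either tool. No source used here gives versions, counting program, annotation or strand use. RNA was extracted with an RNeasy kit, per the labels' protocols.

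Counts were fitted here with edgeR 4.0.16 in R 4.3.3 (filterByExpr, minimum count 10; TMM factors 0.928 to 1.04; glmQLFit without the legacy option and glmQLFTest, genotype only), with Benjamini-Hochberg adjustment over all 13306 genes and a threshold of 0.05. An SE is the log2 fold change divided by the square root of F. Per-library log2 differences used a prior count of 2. An exact permutation test of 2 against 2 cannot go below p = 0.333. GENCODE M21 (GRCm38) gave positions and lengths for 24974 of 25759 symbols. Length and GC offsets were splines with 5 degrees of freedom fitted to each library's deviation. Floors are 3 counts and cover counting error only. The code was tested on simulated counts.

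The 10 genes and the lists were chosen with earlier results of these data known. Named were the 10 genes, Sftpc, Mtor, all listed E-cadherin regulators, from each other list the 3 with the highest mean CPM (not per length) and the 2 with the smallest p, and the 3 genes nearest to Cdh1, except for 2 genes of these lists that are not reported here. Cldn10's comparison with Scgb1a1, Jam2, Cdh2 and markers with values, were chosen after their values were seen. Cell type markers checked were type II, type I, club, ciliated, basal, endothelial, fibroblast and pericyte, mesothelial and leukocyte lists. Alternatives were other scalings, filters and tests (limma-voom 3.58.1, DESeq2 1.42.0), the offsets, a replicate term and each library left out. Leaving out libraries for list values, and the longest transcript as length, were added after seeing the data.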

Additional observations from a re-analysis of the deposited data

How the results depend on the processing

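The 10 junction genes had 0 calls under all alternatives but leaving out 1 library, where the count ran from 0 to 6. Over all genes, calls went from 0 to 13 with DESeq2 and to between 11 and 6200 with a library left out. With the replicate block there were 37 calls, and 1 with the block and the length and GC offsets. The libraries share only replicate numbers (the replicate differences of the genotypes correlated at 0.071 across genes), so the block is no pairing by design. The median log2 fold change of the 10 genes ran from -0.27 to -0.0038 with 1 library left out and from -0.17 to -0.017 in the other fits. Signs turned without mTOR Tg replicate 1. With each library left out in turn, the lowest and highest log2 fold changes were -0.23 and 0.040 for Cdh1, -0.54 and 0.16 for Ctnnb1, -0.090 and 0.80 for Cldn3, -0.074 and 0.89 for Cldn7, -0.69 and 0.0034 for Ocln, -1.15 and 0.079 for Tjp1 and -0.011 and 0.19 for Epcam. Signs also turned with the length and GC offsets for Cdh1 (0.0080, and 0.0078 with the replicate block) and Epcam (-0.073, and -0.074 with the block). Of the 101 genes in the 8 lists, 0 to 51 were called with each library left out in turn. Without mTOR Tg replicate 1 the median of tight junction scaffold genes went from -0.11 to 0.021. That of polarity genes went from -0.17 to 0.011, and that of the other claudins from -0.14 to -0.49. The SD of each list's median between the mTOR Tg replicates was 0.118, 0.130 and 0.460. It is itself drawn from the library left out, so it cannot gauge these moves. The cause was not tested. A fit with 1 library of a genotype takes that library's spread from the other genotype.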

Other observations

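Markers of other lung cells gave these values. Type II markers summed to 109486 and 124188 CPM in mTOR Tg and to 123477 and 102048 CPM in WT, with Sftpc the largest part of each sum. Type I markers summed to 2481 and 2103 CPM in mTOR Tg and to 2016 and 1882 CPM in WT. Mesothelial markers summed to 29.6 and 19.9 CPM in mTOR Tg and to 9.44 and 17.3 CPM in WT, and basal cell markers to 2.11 and 2.87 CPM in mTOR Tg and to 0.659 and 3.29 CPM in WT. Cldn22 had 23 counts in mTOR Tg replicate 1 and 0 in the other libraries.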
